A study of Mus musculus with 6 samples.

Results

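Gne and 7 further genes that carry sialic acid from its synthesis to its transfer onto glycans were followed through 6 RNA-seq libraries of whole mouse prostate. The 8 genes were taken by symbol from a table of read counts for 24421 genes: Gne, Nans and Nanp (synthesis), Cmas (activation), Slc35a1 (Golgi import), and St6gal1, St3gal1 and St3gal4 (transfer). All 8 were in the table, and 7 passed the filter on low counts. The set was chosen by pathway role once the low Gne counts of the knockout libraries were known, that is, selected on the same contrast. The group differences of these 8 genes are therefore given as a description. Beyond 1 count of calls, from which nothing is read, no test of them is given.

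Polyadenylated RNA of prostates from C57BL/6 mice, 52 weeks old, was sequenced. The control group (3 libraries) carried floxed p62 alleles (p62f/f) and is labelled wild type. The knockout group (3 libraries, p62FSP1KO) carried the same floxed alleles with the FSP1cre transgene, and its labels describe a loss of p62 in the stroma. FSP1 is the fibroblast-associated protein encoded by S100a4, and an FSP1 Cre is known to act in some myeloid cells as well as in fibroblasts. p62, encoded by Sqstm1, is an autophagy adaptor and signalling scaffold, and the series title names its action on the stress-response factor ATF4 and on stromal metabolism. All comparisons below set knockout against control. Whether the libraries stem from different animals is not stated, and errors and p-values reflect only how far these samples spread.

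Sialic acids are acidic sugars that cap many N-glycans, O-glycans and glycolipids at the cell surface and on secreted proteins. GNE makes N-acetylmannosamine from UDP-GlcNAc and phosphorylates it, and is the rate-limiting enzyme of the pathway, inhibited by the end product CMP-sialic acid. NANS condenses the product to sialic acid 9-phosphate, NANP removes the phosphate, CMAS attaches CMP in the nucleus, and the SLC35A1 transporter carries CMP-sialic acid into the Golgi. There sialyltransferases place it on glycans: ST6GAL1 on the galactose of N-glycans, ST3GAL1 on the core 1 disaccharide of O-glycans, and ST3GAL4 on the galactose of both kinds. Prostate epithelium secretes large amounts of glycoprotein into the seminal fluid.

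Gne lies on chromosome 4 (GRCm38, 44034075 to 44084177, minus strand) and Cmas on chromosome 6 (142756686 to 142775714, plus strand). Nans (46489248 to 46503632, plus strand) and Slc35a1 (34663257 to 34687438, minus strand) are also on chromosome 4. Nanp is on chromosome 2 (151029685 to 151039398, minus strand), St6gal1 on chromosome 16 (23224740 to 23360350, plus strand), St3gal1 on chromosome 15 (67102875 to 67176830, minus strand) and St3gal4 on chromosome 9 (35046576 to 35119268, minus strand). Nans shares exonic bases with Trim14 on the opposite strand, Nanp with Ninl on the same strand, and St3gal4 with the noncoding gene 4930581F22Rik on the opposite strand. The authors' rule for reads in such shared bases is not given in the sources used, and the counts of these 3 members are uncertain.

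Windows of 300 bases around the start sites (250 before, 50 after; RefSeq, GRCm38.p6) were given for 5 of the 8 genes: Gne, Cmas, Slc35a1, St3gal4 and St6gal1, the windows of Nans, Nanp and St3gal1 not being used here. The windows of Gne, which has 2 annotated starts, and of Cmas are printed because these are the 2 members whose levels were lower in all knockout libraries. Capitals mark CpG dinucleotides, the sites of DNA methylation in mammals, which are dense at many broadly used promoters.
Gne, upstream start, chr4:44084128-44084427, minus strand: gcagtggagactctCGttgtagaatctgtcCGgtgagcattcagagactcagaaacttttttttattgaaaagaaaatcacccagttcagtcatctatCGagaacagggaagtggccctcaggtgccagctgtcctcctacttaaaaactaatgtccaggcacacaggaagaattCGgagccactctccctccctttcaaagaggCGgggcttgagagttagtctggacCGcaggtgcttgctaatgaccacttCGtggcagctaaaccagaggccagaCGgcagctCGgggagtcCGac
Gne, downstream start, chr4:44072668-44072967, minus strand: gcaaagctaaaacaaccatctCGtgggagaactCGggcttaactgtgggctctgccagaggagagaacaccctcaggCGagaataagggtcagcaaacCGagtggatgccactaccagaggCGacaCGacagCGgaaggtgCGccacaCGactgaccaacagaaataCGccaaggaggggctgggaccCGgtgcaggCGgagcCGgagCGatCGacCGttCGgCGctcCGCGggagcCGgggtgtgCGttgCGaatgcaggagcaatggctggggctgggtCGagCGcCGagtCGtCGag
Cmas, chr6:142756436-142756735, plus strand: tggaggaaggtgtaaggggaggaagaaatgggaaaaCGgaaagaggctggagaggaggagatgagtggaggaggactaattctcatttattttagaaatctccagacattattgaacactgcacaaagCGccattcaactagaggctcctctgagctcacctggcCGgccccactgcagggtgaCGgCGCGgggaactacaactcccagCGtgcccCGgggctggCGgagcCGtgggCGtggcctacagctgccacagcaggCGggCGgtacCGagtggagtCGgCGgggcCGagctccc
The windows held 10 CpG at the upstream Gne start, 28 at the downstream Gne start and 17 at Cmas, against a median of 7 over 32851 windows of this length in the table. GGGCGG, the GC box, was searched on both strands and was found 1 time in the Cmas window and in neither Gne window, while 35.7% of all windows held it. TGATGNAAT, a form of the amino acid response element bound by ATF4, searched likewise, was in 0.965% of all windows and in none of the 8 windows of these genes. The G and C content was 51.3% and 63.0% in the Gne windows and 60.0% in the Cmas window, against a median of 52.7%.

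Total counts ranged from 12826463 to 26910053 per library. Levels are given as CPM, counts scaled to a common library total, after TMM scaling of the libraries. Sqstm1 itself was at 295 to 409 CPM in controls and 387 to 541 CPM in knockouts (adjusted p = 0.355, edgeR's quasi-likelihood test), so whole-organ RNA did not check the labels. S100a4 was at 4.02 to 7.47 and 5.56 to 16.1 CPM (adjusted p = 0.455). Control 3 stood apart in its group: its Spearman correlation over genes was 0.942 with control 1 and 0.938 with control 2, which correlated at 0.985 with each other. Knockout 1 stood apart to a smaller extent, at 0.958 with knockout 2 and 0.953 with knockout 3, against 0.986 between those. Luminal epithelial, basal, smooth muscle, fibroblast, leukocyte and endothelial markers were detected in all libraries. Of these 30 genes 0 passed the test in edgeR (1 lower and 9 higher at an unadjusted p under 0.05), 0 in limma-voom and 4 in DESeq2 (Cdh1, Cnn1, Des and Lum). Over all tested genes 5.07% passed in edgeR, 4.85% in limma-voom and 11.8% in DESeq2. Seminal vesicle genes summed to at most 3.91 CPM. Adipocyte genes summed to 1094 CPM in control 3 and lay between 4.44 and 63.7 CPM in the other 5 libraries.

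Gne, the entry enzyme, was lower in every knockout library. Its level was 439, 479 and 586 CPM in control 1, 2 and 3, and 43.1, 33.4 and 46.4 CPM in knockout 1, 2 and 3. The groups did not overlap, and the lowest control stood 9.47-fold above the highest knockout. The group means were 501 ± 75.7 and 41.0 ± 6.76 CPM (SD, n = 3 each), a 12.2-fold lower level with a log2 fold change of -3.61 ± 0.24 (SE). These values rested on 7507 to 9001 reads per control library and 574 to 1210 per knockout library. Per kilobase of exon, Gne stood above 96.5% to 97.9% of the 13279 tested genes with a known length in the controls, and above 55.8% to 64.1% of them in the knockouts. In bulk tissue fewer cells of a type and less RNA per cell cannot be told apart.

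Nans, which uses the product of GNE, overlapped between the groups. It was at 171, 147 and 215 CPM in the controls and at 189, 118 and 137 CPM in the knockouts. Its log2 fold change was -0.26 ± 0.24 (SE), close to its own error. Trim14, the antisense neighbour that shares exonic bases with it, was at 24.8 to 38.9 CPM in controls and 19.8 to 42.9 CPM in knockouts.

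Nanp, the phosphatase gene, was close to the detection limit in all libraries. It had 5, 1 and 3 reads in the controls and 0, 4 and 5 in the knockouts. The 0 in knockout 1 allows a level of up to 0.225 CPM (3 counts, counting error only), within the 0.0638 to 0.244 CPM of the other libraries. It did not pass the count filter and no difference was detectable at this depth. Ninl, whose exons it shares on the same strand, was at 12.4 to 21.9 CPM in the 6 libraries. The part of shared exons in the low count of Nanp was not tested.

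Cmas, which activates sialic acid, was the other member lower in every knockout library. Its controls held 190, 199 and 249 CPM, and its knockouts 86.0, 66.2 and 65.3 CPM. The lowest control was 2.21-fold above the highest knockout. The log2 fold change was -1.55 ± 0.20 (SE, n = 3 each), a 2.93-fold lower mean level.

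Slc35a1, the Golgi transporter gene, did not separate the groups. It was at 35.7, 45.2 and 28.9 CPM in controls and 61.7, 43.3 and 41.3 CPM in knockouts, with control 2 above 2 of the 3 knockouts. Its log2 fold change was 0.41 ± 0.24 (SE), and 0.06 without control 3 and knockout 1.

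**Figure D1:**
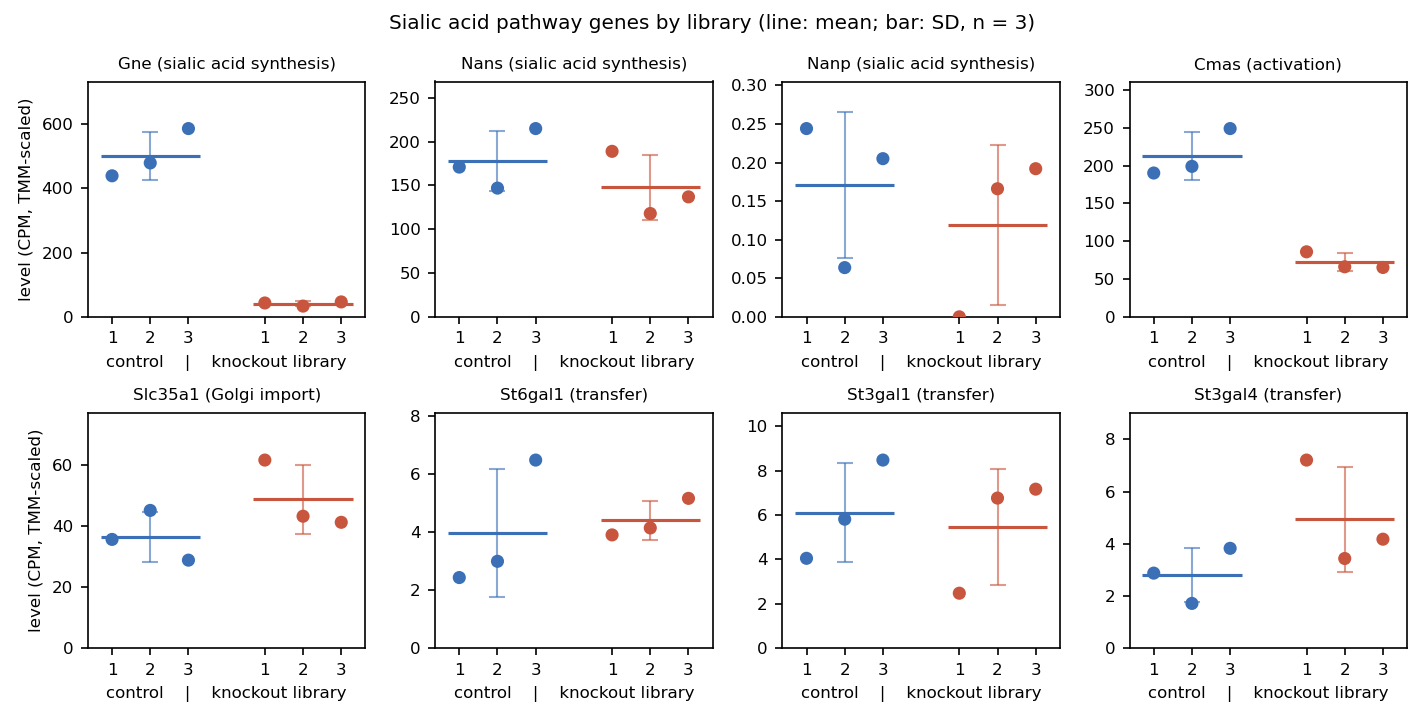
Level (CPM, TMM-scaled, each panel from 0) of the 8 genes in 3 control libraries (blue) and 3 knockout libraries (red); points are libraries, lines are group means and bars are SD. In the Gne and Cmas panels all knockout points lie below all control points, and in the other 6 panels the groups overlap.

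The sialyltransferase members were all low, and their groups overlapped. St6gal1 was at 2.44, 3.0 and 6.49 CPM in controls and 3.91, 4.15 and 5.17 CPM in knockouts. St3gal1 was at 4.05, 5.81 and 8.47 CPM in controls and 2.48, 6.76 and 7.16 CPM in knockouts. St3gal4 was at 2.88, 1.72 and 3.83 CPM in controls and 7.21, 3.44 and 4.18 CPM in knockouts. Control 3 held the highest control value of each, and knockout 1 held the lowest St3gal1 and the highest St3gal4 value of all 6 libraries. The log2 fold changes were 0.16 ± 0.42, -0.15 ± 0.46 and 0.81 ± 0.43 (SE). Without control 3 that of St6gal1 was 0.70, and St3gal1 changed sign with the library left out (-0.38 to 0.19), so neither has a direction in these data. The antisense gene 4930581F22Rik at St3gal4 was at 0.439 to 0.752 CPM in controls and 0.601 to 1.91 CPM in knockouts.

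In the fit over all 13762 tested genes, 2 of the 8 members, Gne and Cmas, were called lower at an adjusted p under 0.05 (edgeR), where 4.66% of all tested genes were called lower, 0.414% higher and 5.07% in either direction. Nothing is read from this count, since the set was proposed from the same contrast. The 2 members whose groups did not overlap are likewise set beside 18.3% of all tested genes that were lower without overlap and 14.1% that were higher without overlap. Of all tested genes 200 had a more negative log2 fold change than Gne and 682 a more negative one than Cmas.

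The order of the levels along the pathway differed between the groups. Per kilobase of exon, Gne was the highest member in controls, at 78.9 ± 11.9 CPM per kb (SD, n = 3). Cmas followed at 45.1 ± 6.75 and Nans at 38.8 ± 7.57 CPM per kb, 2 neighbours whose ranges over libraries overlapped. Within each control library Cmas was above Nans by this length (1.08 to 1.31 times). Slc35a1 was at 16.0 ± 3.57 CPM per kb, below all of these without overlap. The 3 sialyltransferases stood at 0.809 to 0.961 CPM per kb on average, overlapping one another, and Nanp at 0.115 CPM per kb. In knockouts Nans was highest, at 32.3 ± 8.07 CPM per kb, followed by Slc35a1 at 21.3 ± 4.90, Cmas at 15.4 ± 2.48 and Gne at 6.44 ± 1.06 CPM per kb. Over the libraries Nans overlapped with Slc35a1, and Slc35a1 with Cmas, while Gne lay below all 3 without overlap. Within each knockout library Nans was above Slc35a1, and Slc35a1 above Cmas, by this length. Gne thus ranked 1 in controls and 4 in knockouts, and did so too with coding length or the longest transcript as the length, while Cmas and Nans exchanged places in controls with both, and Cmas and Slc35a1 in knockouts with coding length.

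**Figure D2:**
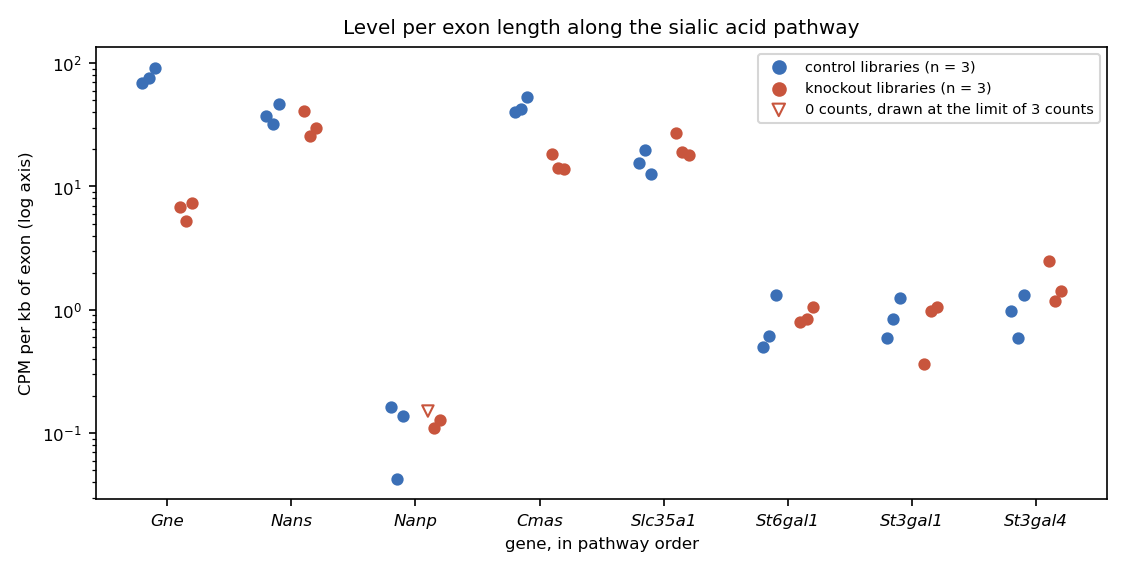
Level per exon length (CPM per kb, log axis) of the 8 genes in pathway order, with 1 point per control library (blue) and knockout library (red). The open triangle marks Nanp in knockout 1, with 0 counts, at the level that 3 counts would give; Gne goes from the top of the pathway in controls (69.1 to 92.1) to below Nans, Cmas and Slc35a1 in knockouts (5.25 to 7.29).

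Ratios within a library do not depend on how libraries are scaled. The level of Gne per kb was 1.85, 2.35 and 1.96 times that of Nans in control 1, 2 and 3, and 0.164, 0.204 and 0.243 times in knockout 1, 2 and 3. Relative to Cmas, Gne was at 1.71 to 1.79 in the 3 controls, a narrow range, and at 0.372, 0.374 and 0.526 in the knockouts. Cmas relative to Nans was at 1.08 to 1.31 in controls and 0.442 to 0.547 in knockouts. These ratios depend on the length used: Gne over Nans was 1.17 to 1.48 in controls and 0.104 to 0.153 in knockouts with coding length, and 1.24 to 1.58 and 0.110 to 0.163 with the longest transcript. With the union of exons, as with the other lengths, the ratios of Gne and Cmas to Nans, and of Gne to Cmas, did not overlap between the groups. The ratio of St3gal1 to St3gal4 was 0.600 to 1.44 in controls and 0.147 to 0.838 in knockouts and overlapped.

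Genes of the pathway outside these 8 were taken from 7 lists drawn up by pathway role, 105 genes in the table of which 89 were tested. The lists were chosen with earlier results of these data known, so their calls are given as a description. Of these, 8 fell (8.99%, against 4.66% of all genes tested) and 0 rose (edgeR, adjusted p under 0.05; 5 were higher and 15 lower at an unadjusted p under 0.05). DESeq2 called 10 lower and 3 higher, against 8.48% and 3.32% of all genes in that test, and limma-voom called 6 lower and 0 higher, against 4.42% and 0.436%. The median log2 fold change of the 89 genes was 0.02, beside 0.03 over all tested genes. The groups did not overlap in 30 (33.7%) of them, beside 32.4% of all tested genes. The share of all tested genes at an unadjusted p under 0.05 is not given. Nothing is therefore read from the counts at that cut-off, for this or any other list. The 8 genes that fell came from 2 lists, the other sialyltransferases and the enzymes that build the glycans to which sialic acid is added.

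Of the 17 other sialyltransferase genes 9 were tested, and 3 fell while 0 rose (edgeR; 3 lower and 0 higher at an unadjusted p under 0.05; 3 lower and 0 higher by DESeq2; 1 lower and 0 higher by limma-voom). Over all tested genes 4.66% were called lower in edgeR, 8.48% in DESeq2 and 4.42% in limma-voom. St3gal3, which sialylates galactose on N-glycans and glycolipids, was at 16.7, 9.26 and 31.7 CPM in controls and 2.63, 5.02 and 3.68 CPM in knockouts. The groups did not overlap, with a log2 fold change of -2.33 ± 0.48 (SE; adjusted p = 0.0347, edgeR). St3gal5, the GM3 ganglioside synthase gene, was at 6.73, 5.24 and 13.0 CPM in controls and 2.63, 1.62 and 1.80 CPM in knockouts. Its log2 fold change was -2.05 ± 0.43 (adjusted p = 0.0363, edgeR). St6galnac4, which extends sialylated O-glycans, was at 7.37, 6.19 and 18.9 CPM in controls and 1.73, 2.53 and 2.91 CPM in knockouts. Its log2 fold change was -2.16 ± 0.49 (adjusted p = 0.0484, edgeR). Each of the 3 was highest in control 3, as Gne and Cmas were. The calls were near the threshold: with a library left out, St3gal3 and St3gal5 kept theirs in 1 of 6 fits each (adjusted p of 0.0219 to 0.115 and 0.0429 to 0.143), and St6galnac4 in 0 of 6 (0.0503 to 0.157). In limma-voom St3gal3 had an adjusted p of 0.0639 and St6galnac4 of 0.0823. St6galnac4 also missed the threshold in edgeR with DESeq2 size factors, upper-quartile factors and library size alone (0.0517, 0.0603 and 0.0524).

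The other 6 tested sialyltransferases did not pass in edgeR, and 4 of them are given here, named after their values were seen. St3gal2 was at 5.22 to 7.79 CPM in controls and 5.33 to 7.66 CPM in knockouts (log2 fold change 0.09 ± 0.28, adjusted p = 0.875, edgeR). St6galnac6 and St8sia4 were higher in every knockout than in any control, with log2 fold changes of 0.57 ± 0.26 and 0.79 ± 0.37 (adjusted p = 0.255 and 0.263). Over all tested genes 14.1% were higher without overlap. St8sia2, a polysialyltransferase gene, was at 1.34 to 2.46 CPM in controls and 0 to 0.871 CPM in knockouts (adjusted p = 0.280). St6gal2 and St6galnac1 had 0 counts in all 6 libraries.

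The makeup of sialyltransferase RNA was described per kb over all 20 genes of the family. Their summed level was 15.1, 11.5 and 27.1 CPM per kb in control 1, 2 and 3 and 9.17, 10.5 and 10.2 CPM per kb in knockout 1, 2 and 3. St3gal3 made up 29.0% to 42.3% of the sum in controls and 10.4% to 17.3% in knockouts. St6gal1, St3gal1 and St3gal4 together made up 13.7% to 17.7% in controls and 28.7% to 39.5% in knockouts, while their own levels overlapped between the groups. These shares are parts of one sum, and a lower St3gal3 raises the others.

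**Figure D3:**
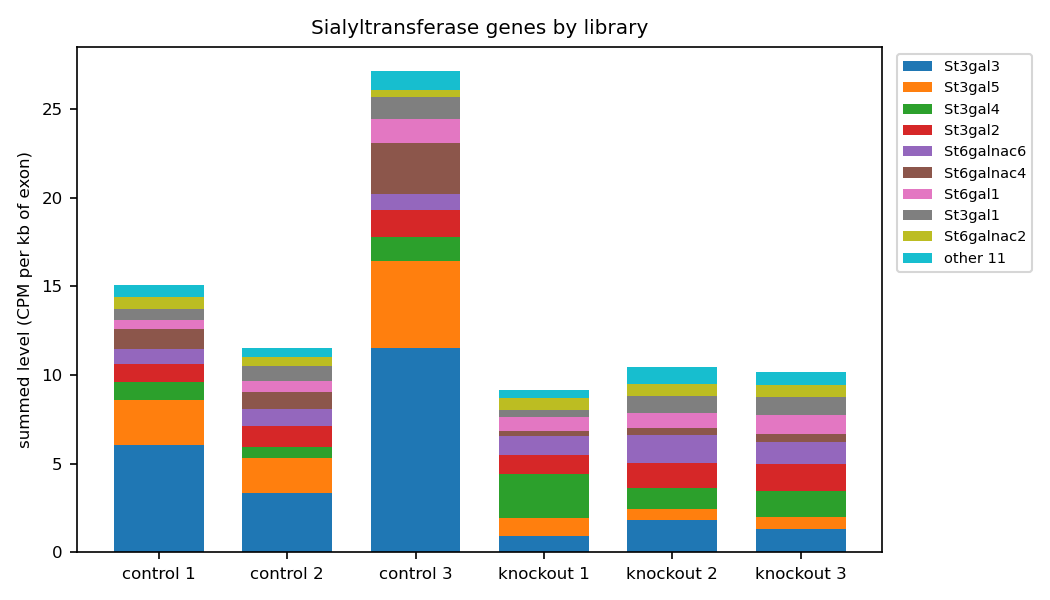
Stacked levels (CPM per kb of exon) of the 20 sialyltransferase genes in the 6 libraries, with the 9 highest drawn by name and the other 11 summed. St3gal3 is the largest part in the 3 controls and the sum of control 3 (27.1) is the highest.

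Enzymes that build the glycans to be sialylated held 5 falls and 0 rises among 27 tested genes (edgeR). At an unadjusted p under 0.05, 7 were lower and 3 higher. DESeq2 called 5 lower and 2 higher, and limma-voom called 5 lower and 0 higher. Over all tested genes edgeR called 4.66% lower and 0.414% higher, DESeq2 8.48% and 3.32%, and limma-voom 4.42% and 0.436%. B4galt6, a galactosyltransferase of lactosylceramide synthesis, was at 94.9, 106 and 185 CPM in controls and 6.54, 5.80 and 4.67 CPM in knockouts, a log2 fold change of -4.51 ± 0.33 (SE; adjusted p = 7.38e-04, edgeR). Mgat5, which adds the branch of tri- and tetra-antennary N-glycans, was at 11, 12.3 and 17.8 CPM in controls and 0.301, 0.953 and 0.996 CPM in knockouts (log2 fold change -4.12 ± 0.45, adjusted p = 0.00314). Galnt3, an enzyme that starts mucin-type O-glycans, was at 50.7, 50.9 and 76.4 CPM in controls and 7.96, 4.15 and 3.29 CPM in knockouts (log2 fold change -3.55 ± 0.38, adjusted p = 0.00266). These 3 kept their call with each library left out in turn. Galnt4, of the same family as Galnt3, was at 83.0 to 86.0 CPM in controls and 41.0 to 46.8 CPM in knockouts (log2 fold change -0.98 ± 0.15, adjusted p = 0.0103; 0.0584 without knockout 3). Galnt10, named after its values were seen, had a log2 fold change of -1.14 ± 0.25 (adjusted p = 0.0461) and kept its call only without knockout 3 when single libraries were omitted.

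Other enzymes of this list were not called in edgeR with all 6 libraries. B4galt1, the major beta-galactosyltransferase gene, was at 129 to 154 CPM in controls and 122 to 142 CPM in knockouts (log2 fold change -0.10 ± 0.17, adjusted p = 0.734, edgeR). Man2a1, the Golgi mannosidase gene, was at 631, 673 and 335 CPM in controls and 627 to 786 CPM in knockouts (adjusted p = 0.471). Mgat4a, Mgat4b and Mgat2 were higher in every knockout than in any control, as were 14.1% of all tested genes. Their log2 fold changes were 1.34 ± 0.47, 1.07 ± 0.57 and 0.96 ± 0.26, and they did not pass (adjusted p = 0.161, 0.305 and 0.0866). DESeq2 called Mgat4a and Mgat2 higher, edgeR called Mgat4a without control 3, and it called Mgat4a and Mgat4b without control 3 and knockout 1. Control 3 was the lowest library for each: Mgat4b was at 14.1 CPM there and at 85.8 and 85.6 CPM in control 1 and 2. These 3 were named after their values were seen.

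**Figure D4:**
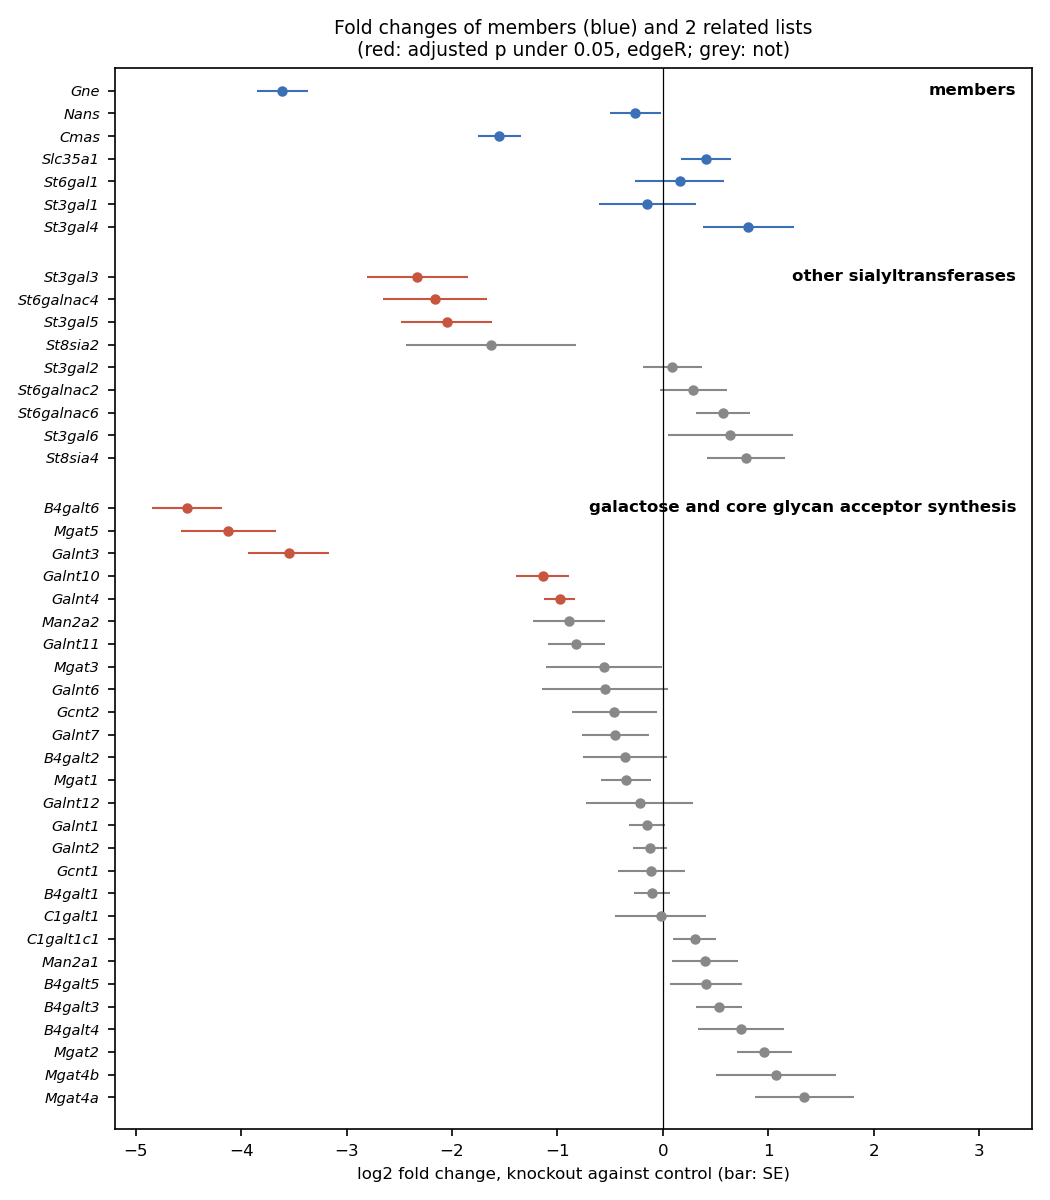
Log2 fold change of knockout against control (bars are SE) for the 7 tested members (blue) and for the tested genes of the 2 lists that held calls (red for an adjusted p under 0.05 in edgeR, grey for the rest). Gne (-3.61) and Cmas (-1.55) stand left of the other members, and B4galt6, Mgat5 and Galnt3 lie beyond -3.

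Upstream of GNE, the hexosamine genes that supply UDP-GlcNAc had 0 calls among 11 (edgeR; 1 lower and 0 higher at an unadjusted p under 0.05; 0 by DESeq2 or limma-voom). Gfpt1, the rate-limiting enzyme of that pathway, was at 698, 751 and 687 CPM in controls and 336, 442 and 569 CPM in knockouts, without overlap (log2 fold change -0.66 ± 0.26, adjusted p = 0.192, edgeR). Pgm3 was at 49.1 to 106 CPM in controls and 80.8 to 102 CPM in knockouts (adjusted p = 0.787, edgeR). Over all tested genes edgeR called 5.07%, DESeq2 11.8% and limma-voom 4.85%. Beside such shares 0 calls among 11 genes is not read as a lack of change.

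Genes that modify, remove or recycle sialic acid had 0 calls among 10 (edgeR; 2 lower and 0 higher at an unadjusted p under 0.05; 2 lower by DESeq2, 0 by limma-voom). Glb1, the lysosomal beta-galactosidase gene, was at 167, 177 and 66.3 CPM in controls and 189.8 to 239 CPM in knockouts (adjusted p = 0.338). Neu1, the lysosomal sialidase gene, was at 149, 138 and 63.0 CPM in controls and 153 to 183 CPM in knockouts (adjusted p = 0.383). The genes called by DESeq2 were Siae, a sialic acid esterase gene, and Neu2, a cytosolic sialidase gene, both named after their values were seen (adjusted p = 0.0930 and 0.0870 in edgeR). Over all tested genes edgeR called 5.07%, DESeq2 11.8% and limma-voom 4.85%, and 0 calls among 10 genes is not read as a lack of change.

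The 12 other nucleotide sugar transporter genes had 0 calls (edgeR; 1 higher and 0 lower at an unadjusted p under 0.05; 0 by DESeq2 or limma-voom). Slc35a3, a UDP-GlcNAc transporter gene, was at 94.4 to 137 CPM in controls and 69.2 to 139 CPM in knockouts (adjusted p = 0.691, edgeR), and Slc35b1 at 99.3 to 130 and 98.9 to 225 CPM (adjusted p = 0.413). Over all tested genes edgeR called 5.07%, DESeq2 11.8% and limma-voom 4.85%. Beside such shares 0 calls in this list, or in the fucose and lectin lists that follow, is not read as a lack of change. GDP-fucose and fucosyltransferase genes had 0 calls among 12 (edgeR; 1 higher and 2 lower at an unadjusted p under 0.05; 1 higher by DESeq2, 0 by limma-voom). Fut9 was at 238, 171 and 1.09 CPM in controls and 349 to 474 CPM in knockouts (adjusted p = 0.476), and Fut8, the core fucosyltransferase gene, at 167, 143 and 16.1 CPM and at 215 to 313 CPM (adjusted p = 0.331). Both were lowest in control 3, where the sialyltransferases that fell were highest, and without control 3 and knockout 1 they were higher with an adjusted p of 0.0333 each, in a fit where 2.62% of all genes were called higher and 6.15% lower. Sialic acid binding lectin genes, mostly of leukocytes and endothelium, had 0 calls among 8 (edgeR; 0 at an unadjusted p under 0.05; 0 by DESeq2 or limma-voom), and the most abundant, Siglec1 and Selp, were at 0.976 to 4.10 CPM (adjusted p = 0.896 and 0.825).

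Neighbours of the 2 lower members on the chromosome did not pass the test. Clta, the clathrin light chain gene 1.23 kb from Gne, was at 143 to 151 CPM in controls and 127 to 183 CPM in knockouts (log2 fold change 0.06 ± 0.19, adjusted p = 0.868, edgeR). Gm12504, on the other side of Gne at 37.7 kb, was at 1.85, 2.04 and 4.51 CPM in controls and 0.827, 0.0415 and 0.192 CPM in knockouts (log2 fold change -3.15 ± 0.87, adjusted p = 0.0920 in edgeR; 0.00662 in DESeq2, 0.0445 without knockout 1 and 0.00755 without control 3 and knockout 1). It missed the threshold in limma-voom (0.0574) and in edgeR with any other single library left out (0.146 to 0.206). Abcc9 and C2cd5, which flank Cmas, were at 4.68 to 5.95 and 17.9 to 31.3 CPM in controls and 4.51 to 8.17 and 26.7 to 32.0 CPM in knockouts (adjusted p = 0.611 and 0.590). Of the nearest tested genes on both sides of all 8 members, 16 in number, 0 passed in edgeR or limma-voom. DESeq2 called 1, Gm12504, and gave Adipoq no adjusted p. Over all tested genes edgeR called 5.07%, limma-voom 4.85% and DESeq2 11.8%. Nothing is therefore read from 0 or 1 calls among 16 genes.

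Genes with a pattern like that of Gne were ranked by Pearson's r of log2 CPM over the 6 libraries, among 11218 genes with a mean log2 CPM of at least 1. The 2 groups are separate clusters on this measure, so r mostly reflects the difference between them, and 366 genes reached 0.95. The 10 nearest, with r of 0.996 to 0.998, were Cbr2, Slc43a2, Paqr8, Oit1, Slc5a8, Timp4, Emp2, Mbnl3, Atp2c2 and Nupr1. Cbr2, a carbonyl reductase gene, was at 431, 514 and 789.9 CPM in controls and 20.7, 18.2 and 25.7 CPM in knockouts. Slc43a2, an amino acid transporter gene, was at 45.6, 55.7 and 65.6 CPM and at 8.57, 6.30 and 9.39 CPM. Like Gne, both were highest in control 3 and lowest in knockout 2. Atp2c2, a Golgi calcium and manganese pump gene, was at 156 to 224 CPM in controls and 0.0415 to 0.376 CPM in knockouts. Nupr1, a stress-induced chromatin factor gene, was at 1029.7 to 1508 CPM in controls and 2.82 to 6.31 CPM in knockouts. Cmas ranked 80 by this measure (r = 0.983), while Nans had r = 0.529 and Slc35a1 r = -0.634.

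**Figure D5:**
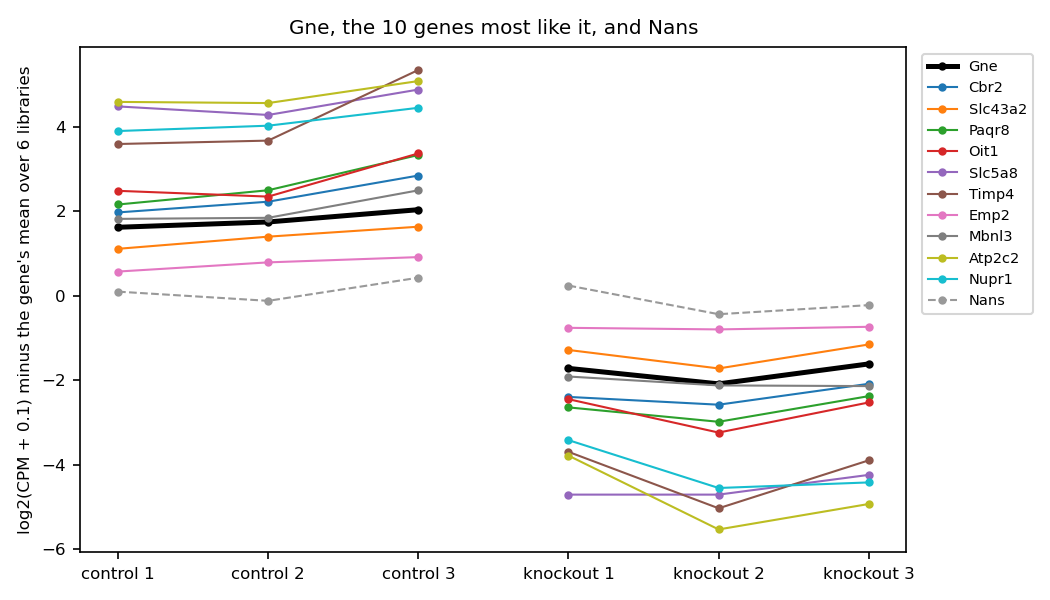
Log2(CPM + 0.1), as the difference from each gene's mean over the 6 libraries, for Gne (black), the 10 genes most like it and Nans (dashed grey), with libraries of a group joined for legibility only. The 10 genes and Gne are above their mean in the 3 controls and below it in the 3 knockouts, while Nans stays near 0.

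Markers of ventral-type secretion moved with Gne and Cmas. The summed level of Sbp, Sbpl and Spink1 was 65400, 49129 and 164610 CPM in the controls, highest in control 3, against 91.7, 18.1 and 3.03 CPM in knockout 1, 2 and 3, and all 3 of 3 genes fell (edgeR, adjusted p = 0.0148 for Sbp, 0.00832 for Sbpl and 0.00940 for Spink1). The gene lists were chosen with earlier results of these data known, so these 3 calls are given as a description. They stand beside 4.66% of all tested genes called lower in edgeR. Each of the 3 lost its call without knockout 2 (adjusted p = 0.0815, 0.0543 and 0.0544 for Sbp, Sbpl and Spink1), with log2 fold changes of -11.04, -10.91 and -10.85. Gne and Cmas were highest in control 3, as these markers were. Over the knockouts Cmas, like the marker sum, was highest in knockout 1 (86.0 CPM), and it was nearly equal in knockout 2 and 3 (66.2 and 65.3 CPM). Gne was highest in knockout 3 (46.4 CPM). With 3 libraries nothing is read from these orders, and a link was not tested. Tgm4, Pbsn and 9530053A07Rik, secretory genes of other lobes, summed to 169573, 234426 and 697 CPM in the controls, lowest in control 3, and to between 266206 and 322313 CPM in knockouts. Of these 3 genes 0 passed in edgeR (0 at an unadjusted p under 0.05) or limma-voom, and 1, Pbsn, in DESeq2. Over all tested genes 5.07% passed in edgeR, 4.85% in limma-voom and 11.8% in DESeq2. Luminal epithelial markers summed to 2153 to 3211 CPM in controls and 3433 to 3837 CPM in knockouts, and smooth muscle markers to 1011 to 2358 and 2251 to 3446 CPM. With the log2 level of the ventral-type markers as a covariate, the log2 fold change was -3.52 for Gne and -0.29 for Cmas. But this covariate itself separates the groups (r = -0.974 with the group), and 0 of all tested genes were called in that fit. Neither value is therefore read as an effect of genotype or of ventral-type content. The level of ventral-type markers and the genotype cannot be told apart in this design. Without control 3 and knockout 1 the log2 fold changes were -3.53 for Gne and -1.57 for Cmas.

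Atf4, the factor named in the series title, was at 194, 221 and 108 CPM in controls and 542, 388 and 368 CPM in knockouts (log2 fold change 1.31, adjusted p = 0.0585, edgeR; 7.43e-04 in DESeq2, 0.0497 in limma-voom, 0.0484 with upper-quartile factors and 0.0442 with library size alone). In edgeR it missed the threshold with each library left out in turn (adjusted p of 0.0712 to 0.14). It also missed with DESeq2 size factors (0.055), both other filters (0.0544 and 0.0568) and the ventral-type covariate (0.551). Without control 3 and knockout 1 Atf4 passed in edgeR (0.0158). It was lowest in control 3 and highest in knockout 1, whereas Gne was highest in control 3 and lowest in knockout 2.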

How the data were processed

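Counts per gene symbol were deposited by the authors as whole numbers with no normalization, in 1 table of 6 libraries. Per the labels' protocols, RNA was extracted with Trizol, and its polyadenylated part was made into directional NEBNext libraries and read single-end on an Illumina NextSeq. STAR, DESeq2 and mm10 are named, per the submitters' processing notes. Which program counted the reads, with which annotation and strand setting, is not given in the sources used. The genotype label set the groups; replicates were numbered in sample order, which pairs nothing.

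Genes passing edgeR's expression filter (minimum count 10; 13762 of 24421) were tested with edgeR 4.0.16 in R 4.3.3 by the quasi-likelihood F test with TMM factors and no covariate, adjusted by Benjamini-Hochberg over all tested genes at 0.05. Each SE is the absolute log2 fold change over the square root of F. The 8 members and the gene lists were chosen with earlier results of these data known. Named are the members, up to 4 called genes per list and direction and the 2 most abundant per list, the 10 genes most like Gne, the nearest tested neighbours, and Sqstm1, S100a4, Atf4, Sbp, Sbpl and Spink1. Exon lengths and coordinates are from GENCODE M21 (GRCm38), which matched 96.5% of tested symbols. Where a symbol had several models on 1 chromosome the longest was used. Pairs of libraries differed far beyond sampling noise, so none was a duplicate. One gene of a marker list is not reported here. The test was checked on simulated counts. Alternatives were other scalings, filters and thresholds, DESeq2 1.42.0, limma-voom (limma 3.58.1), libraries left out, and the log2 summed CPM of Sbp, Sbpl and Spink1 as a covariate. Reads carry no molecular identifiers, so limits cover counting error only.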

Additional observations from a re-analysis of the deposited data

How the results depend on the processing

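The set was selected on this contrast, so the stability of Gne and Cmas over refits of the same 6 libraries is no support for them. With the ventral-type secretory covariate their log2 fold changes were -3.52 and -0.29. Neither is read as a result, since that covariate nearly repeats the group split. With a library left out, the log2 fold change was -3.71 to -3.48 for Gne and -1.69 to -1.42 for Cmas. The rank of Gne by level per length did not change with coding length or the longest transcript. Values of the other members that moved by more than the replicate spread were, with the covariate, 1.28 for Nans, 1.22 for Slc35a1, -2.61 for St3gal1 and 3.43 for St3gal4, and, without control 3 and knockout 1, 0.06 for Slc35a1 and 0.78 for St6gal1. With a library left out St6gal1 ran from -0.10 to 0.70, and the cause was not tested. No paired analysis was possible because the labels give the groups no shared replicate numbers.

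Over all genes 698 were called. The count was 1618 in DESeq2, 1229 without control 3 and knockout 1, 255 to 551 with 1 library left out, 246 and 1190 at thresholds of 0.01 and 0.1, and 0 with the covariate, which nearly repeats the group split. Of the other pathway genes 8 were lower. It was 4 to 6 with 1 library left out (4 without control 1, control 3, or any 1 knockout), 3 at a threshold of 0.01 and 0 with the covariate. The number higher was 0; it was 1 with upper-quartile factors (Fpgt), 3 in DESeq2 (Fpgt, Mgat2 and Mgat4a), 4 without control 3 and knockout 1 (Fut8, Fut9, Mgat4a and Mgat4b), 2 at a threshold of 0.1, and 0 to 1 with 1 library left out (Mgat4a without control 3). Among called genes, the covariate reversed the signs of St3gal5 (0.58), Sbp (1.82) and Sbpl (0.38), and 0 of the 20 called genes that the naming rule gives outside the members kept their call, nor did Galnt10. Sbp, Sbpl and Spink1 make up that covariate, so its effect on them was largely set in advance and is no result. The median log2 fold change over all genes was 0.03, and -0.10 with library size alone. Depth limits Nanp and the sialyltransferases, of which 8 had too few reads to test.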
